A study of Caenorhabditis elegans and Caenorhabditis briggsae with 26 samples.

Results

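The genes described here are 10 Skp1-related genes (skr) of the nematode Caenorhabditis elegans, taken by gene ID from 21774 IDs in the deposited expression table: skr-1 (F46A9.5), skr-2 (F46A9.4), skr-3 (F44G3.6), skr-4 (Y60A3A.18), skr-5 (F47H4.10), skr-7 (Y47D7A.1), skr-8 (C52D10.9), skr-9 (C52D10.7), skr-10 (Y105C5B.13) and skr-15 (F54D10.1). They were chosen by family name with earlier results in view: the C. briggsae RPKM of embryos and L1 larvae had put some of them among the largest differences between those stages, and those values are given as a description only. C. briggsae values, which the table lists beside those of the C. elegans ortholog, exist for 5 of them, namely skr-1, skr-3, skr-7, skr-15 and skr-8. The table holds 9 further skr genes, which serve as the comparison within the family. Poly(A) RNA was sequenced from wild-type C. elegans (strain N2) and wild-type C. briggsae (strain AF16), both grown at 20 °C on E. coli. Embryos were freed from adults with bleach, and larvae that had hatched and arrested without food were then fed. C. elegans was collected 7 h after feeding as L1, at 20 h as L2, at 29 h as L3, at 41 h as early L4, at 52 h as late L4 and at 57 h as young adults that carried no eggs yet. C. briggsae was collected at 6, 20, 28, 41, 53 and 63 h for the same stages. No group carries a transgene or a mutation, and every sample is whole animals of all tissues.

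Embryos and L1 larvae had 3 libraries per species: A1 and A2 come from culture A, so that their spread is technical, and B comes from a repeat of the time course, which leaves n = 2 cultures. L2, L3, L4, late L4 and young adults had 1 library each, and 2 libraries were made from pooled material of mixed stages. The unit is RPKM, reads per kilobase of gene model scaled to the number of mapped reads, as computed by the authors. In whole animals, fewer cells of a type and less RNA per cell cannot be told apart.

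Skp1 is the adaptor of the SCF ubiquitin ligases: it ties an F-box protein, which picks the substrate, to the cullin CUL1, whose RING partner Rbx brings in the ubiquitin-charged enzyme. Attachment of the ubiquitin-like protein NEDD8 switches the cullin on, and the COP9 signalosome takes NEDD8 off again. Most animals make do with a very small number of Skp1 genes, while C. elegans has a large family. Loss of skr-1 and skr-2 by RNA interference kills C. elegans embryos and lets cells overproliferate, and loss of skr-7, skr-8, skr-9 and skr-10 disturbs body shape and larval growth.

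The C. elegans copies are scattered over 4 chromosomes. Positions are those of the WBcel235 annotation and serve only to locate the genes, since the build behind the RPKM values is not given in the sources used here. skr-1 (chr I:9471550-9472641) and skr-2 (chr I:9469654-9470637) lie on the plus strand 912 bases apart, with 3 exons each. skr-3 (chr V:16121084-16122649, 4 exons), skr-4 (chr V:19924224-19925033, 3 exons) and skr-5 (chr V:17347902-17348723, 3 exons) lie far from one another on the plus strand, and skr-5 overlaps the annotated gene lsy-27. skr-7, skr-8, skr-9, skr-10 and skr-15 have a single exon of 555 to 585 bases. skr-8 (chr IV:17165250-17165834, minus strand) and skr-9 (chr IV:17163573-17164157, plus strand) are 1092 bases apart, and the related skr-12 and skr-13 flank them. skr-7 (chr V:4422427-4423011, plus strand) lies 851 bases from skr-14, which is on the opposite strand. skr-10 (chr IV:15946807-15947385) and skr-15 (chr II:3824155-3824709) stand alone. Near-identical copies share reads, and how the authors assigned such reads is not given in the sources used here, so the split within skr-7 to skr-10 and skr-12 to skr-15, and between skr-1 and skr-2, is uncertain.

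The read depth is unknown, no value in the table equals 0, and values below 1 RPKM rest on few reads. As a guide to what 1 read is worth, each gene's value was divided by its young adult value where both were under 1.5 RPKM. The most frequent ratio was 2.73 to 3.97 in C. elegans embryo libraries A2 and B and in the 3 L1 libraries. It was 0.909 to 1.17 in the other C. elegans libraries. Low levels may therefore be least precise in embryo libraries A2 and B and in L1, but the worth of 1 read was not measured. C. elegans embryo library A1 stood apart. It differed more than 2-fold from library A2 of the same culture in 16.1% of 14120 genes, against 1.56% between A2 and B. A list of 10 oocyte and early embryo markers was used to check the stage labels (mex-5, pos-1, oma-1, oma-2, cpg-1, cpg-2, puf-5, rme-2, egg-1 and gld-1), and all were detected at 1 RPKM or more in the 3 C. elegans embryo libraries. Their summed level was at most 16.8 RPKM in C. elegans L1 larvae and 761 to 948 RPKM in embryos.

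The C. elegans genes fell into 4 stage patterns. skr-7, skr-8, skr-9, skr-10 and skr-15 were high in embryos and near or below 1 RPKM in most later libraries. skr-1 was at 177 RPKM or more in every library. skr-2 was high in embryos and in young adults and low in between, and skr-3, skr-4 and skr-5 were lowest in embryos.

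**Figure D1:**
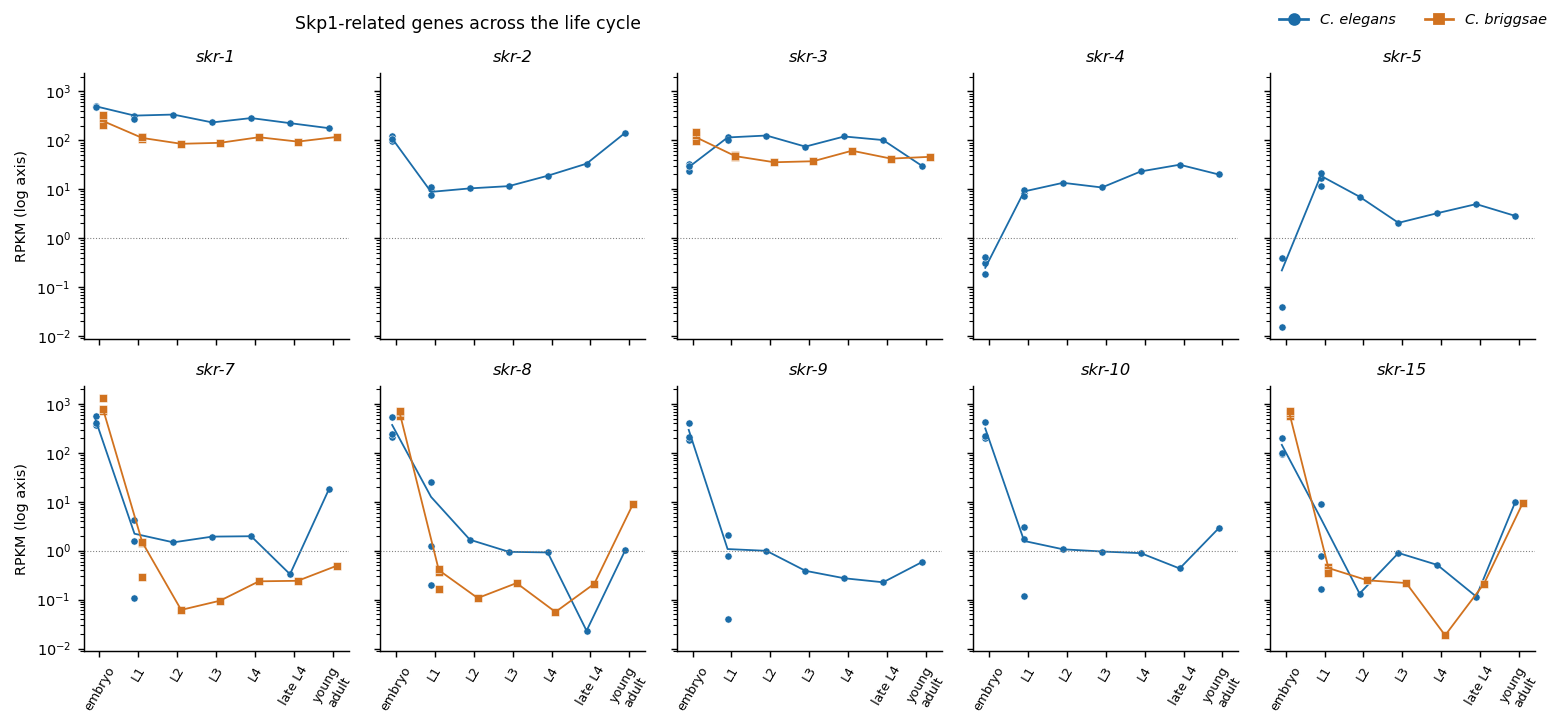
RPKM (log axis) of the 10 Skp1-related genes by stage in C. elegans (blue circles) and, for the 5 genes with values, C. briggsae (orange squares). Each point is 1 library, lines join culture A (mean of A1 and A2 in embryos and L1), and the dotted line marks 1 RPKM. skr-7, skr-8, skr-9, skr-10 and skr-15 lie in every later stage below all embryo libraries of their species, while skr-3, skr-4 and skr-5 of C. elegans sit lowest in embryos.

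All 10 members differed between C. elegans L1 larvae and embryos (limma, Benjamini-Hochberg adjusted p under 0.05): 3 were higher in L1 and 7 were lower. This contrast called 70.8% of the 15292 genes tested (28.3% higher and 42.5% lower in L1), so a call in itself says little. The median log2 difference, L1 minus embryo, was -4.43 over the members and -0.33 over all genes tested. Of the 10, skr-4 and skr-5 passed the filter on low values only through the L1 samples. In all 10 genes the 3 libraries of L1 and the 3 of embryos did not overlap, which held for 75.3% of genes (44.3% lower and 31.1% higher in L1).

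skr-7, a member of the group whose loss disturbs body shape, had 4.34, 0.11 and 1.61 RPKM in C. elegans L1 libraries A1, A2 and B, against 560, 378 and 413 RPKM in embryo libraries A1, A2 and B. It averaged 1.91 ± 0.44 RPKM in L1 and 441 ± 39.9 RPKM in embryos (SD, n = 2 cultures each). Its log2(RPKM + 1) difference was -7.44 ± 0.21 (SE, adjusted p = 3.1e-06, limma), the lowest of the 10 members.

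skr-8 had 25.0, 0.20 and 1.24 RPKM in the L1 libraries, against 529, 213 and 238 RPKM in the embryo libraries. Library A1 was the highest at both stages. The log2 difference was -6.33 ± 0.42 (SE, adjusted p = 2.25e-05, limma), and its neighbour skr-9 had 2.12, 0.04 and 0.79 RPKM in L1 against 408, 182 and 207 RPKM in embryos, a log2 difference of -7.05 ± 0.24 (adjusted p = 3.71e-06).

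skr-10 had 3.04, 0.12 and 1.77 RPKM in L1 libraries A1, A2 and B, against 432, 199 and 218 RPKM in embryos, a log2 difference of -6.71 ± 0.26 (SE, adjusted p = 4.82e-06, limma). skr-15 had 9.08, 0.16 and 0.79 RPKM in L1, against 198, 93.1 and 98.0 RPKM in embryos, a log2 difference of -5.55 ± 0.35 (adjusted p = 1.94e-05). In both genes the A1 libraries again held the highest value of each stage.

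This excess in A1 was common to the single-exon members. In L1, A1 held 40.7 times the skr-7 level of A2 and 128 times that of skr-8, ratios against A2 values of 0.11 and 0.20 RPKM. In embryos the A1 to A2 ratio was 2.48 for skr-8, 2.24 for skr-9, 2.17 for skr-10, 2.13 for skr-15 and 1.48 for skr-7. It was 0.963 for skr-1, 1.29 for skr-2 and 1.35 for skr-3. Other single-exon skr genes were mixed. In L1 their ratio was 11.8 to 33.7 for skr-12, skr-13 and skr-14, but 0.925 for skr-16, 0.850 for skr-20 and 1.22 for skr-21. In embryos these genes had ratios of 1.05 to 1.48. Over all genes of 500 to 1000 bases, the median log2 difference between A1 and A2 was -0.02 in L1 and 0.06 in embryos, while over the members at 1 RPKM or more in either library it was 0.95 in L1 and 0.82 in embryos. The part of library A1 in the results was not tested beyond leaving it out. Without A1 of both stages, an alternative chosen after seeing the data, all 10 members were still called, and the log2 difference of skr-8 was -7.11 ± 0.34 (adjusted p = 0.000414, limma).

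In C. briggsae the same genes were in view when the list was drawn up, since skr-7, skr-15 and skr-8 had been among the largest embryo to L1 differences of an earlier analysis of these data, so embryos and L1 of that species are described without a test. skr-7 had 1.45, 1.53 and 0.30 RPKM in C. briggsae L1 libraries A1, A2 and B, against 712, 770 and 1330 RPKM in embryos. skr-8 had 0.37, 0.43 and 0.16 RPKM in L1, against 576, 674 and 726 RPKM in embryos. No L1 library came near the embryo levels, and A1 was not the highest embryo library for any of the 5 members.

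skr-15 had 0.47, 0.41 and 0.36 RPKM in C. briggsae L1, against 578, 662 and 721 RPKM in embryos. The ratio of skr-15 to skr-8 lay between 0.981 and 1.04 in all 6 C. briggsae libraries where both reached 1 RPKM, and the listed values were identical at L3 and at late L4. In C. elegans the same ratio ran from 0.364 to 9.29 over 7 libraries. The C. briggsae values of these 2 IDs therefore cannot be read as separate genes.

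**Figure D2:**
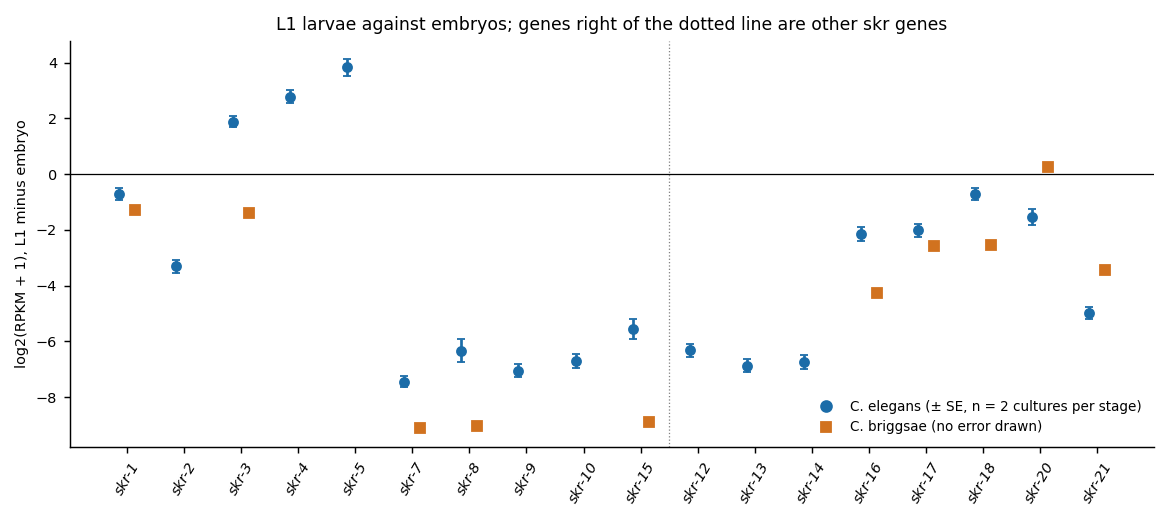
Difference of log2(RPKM + 1), L1 minus embryo, for the 10 members (left of the dotted line) and 8 other skr genes that passed the filter. C. elegans differences (blue circles) carry the SE of the limma fit with n = 2 cultures per stage, and C. briggsae differences (orange squares) are drawn without error or test. skr-3 lies at 1.88 in C. elegans and at -1.40 in C. briggsae, while skr-7, skr-8 and skr-15 lie below -5 in both.

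The other skr genes of C. elegans were lower at L1, as were 7 of the 10 members. All 8 that passed the filter fell relative to embryos (limma, adjusted p under 0.05), where 42.5% of all genes fell. skr-6 stayed below 1 RPKM in every library and was not tested. In L1 cultures A and B, skr-12 had 0.82 and 0.81 RPKM and skr-13 had 0.86 and 0.56 RPKM. Both passed the filter only through embryos, where they are high, so their calls are not read as a result about the family. skr-13 (log2 difference -6.87 ± 0.24), skr-14 (-6.73 ± 0.25) and skr-12 (-6.33 ± 0.23), the single-exon neighbours of skr-9, skr-7 and skr-8, fell about as far as those members. skr-21, a single-exon gene on chromosome X, which holds no member, was at -4.98 ± 0.23. The rest fell less, with skr-16 at -2.15 ± 0.25, skr-17 at -2.02 ± 0.25, skr-20 at -1.54 ± 0.28 and skr-18 at -0.72 ± 0.21. skr-11 and skr-19 were not analysed here.

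skr-1, the family member whose protein serves the essential SCF complexes, was the most abundant member in every C. elegans library after the embryo. It had 320, 319 and 276 RPKM in L1 libraries A1, A2 and B, against 487, 505 and 483 RPKM in embryos, and averaged 298 ± 30.6 RPKM in L1 and 490 ± 9.17 RPKM in embryos (SD, n = 2 cultures each). The log2 difference was -0.72 ± 0.22 (SE, adjusted p = 0.0209, limma), or -0.39 relative to the median gene. The call was lost under median-ratio scaling (-0.59, adjusted p = 0.0905) and when embryo library A2, embryo culture A, embryo culture B or L1 culture B was left out (adjusted p of 0.0652 to 0.115).

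Across the C. elegans stages skr-1 had 496 RPKM in embryos (culture A), 320 in L1, 336 in L2, 232 in L3, 285 in L4, 224 in late L4 and 177 in young adults. The highest stage was 2.81 times the lowest. In C. briggsae it had 104.7, 119 and 117 RPKM in L1, against 209, 282 and 322 RPKM in embryos, and 84.8, 88.8, 115.5, 94.0 and 117 RPKM from L2 to young adults. Here too the embryo was the highest stage, 2.89 times the lowest, with the later stages close together.

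skr-2, which lies next to skr-1 on chromosome I, had a different profile. It had 9.89, 7.74 and 11.3 RPKM in C. elegans L1 libraries A1, A2 and B, against 123, 95.0 and 107 RPKM in embryos. The log2 difference was -3.31 ± 0.22 (SE, adjusted p = 2.2e-05, limma). Its level was then 10.4 RPKM in L2, 11.6 in L3, 18.8 in L4, 33.3 in late L4 and 144 in young adults, the highest of the 7 stages.

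Set against its neighbour, skr-2 amounted to 0.188 to 0.252 times the skr-1 level in embryos, 0.0242 to 0.0409 times in L1 and 0.813 times in young adults. Young adults, with 1 library and no C. briggsae values for skr-2, allow no test of this difference. The oocyte and early embryo markers were high in the same library: their summed level was 78.1 RPKM in late L4 and 5292 RPKM in young adults, and the part of oocytes in the skr-2 level was not tested.

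skr-3, skr-4 and skr-5 rose at L1 in C. elegans. skr-3 and skr-5, whose products act with the cullin CUL-6 in the defence of the gut against intracellular pathogens, differed in abundance. skr-3 had 114, 114.7 and 102 RPKM in L1 libraries A1, A2 and B, against 32.4, 24.0 and 29.2 RPKM in embryos. The log2 difference of skr-3 was 1.88 ± 0.20 (SE, adjusted p = 0.000157, limma), with 108 ± 8.91 RPKM in L1 and 28.7 ± 0.72 RPKM in embryos (SD, n = 2 cultures each). skr-5 had 16.8, 20.95 and 11.5 RPKM in L1, against 0.04, 0.40 and 0.02 RPKM in embryos. Every L1 value of skr-5 was above 10 RPKM and every embryo value below 0.5, and the log2 difference was 3.83 ± 0.30 (SE, adjusted p = 3.93e-05, limma). As skr-5 passed the filter on low values only through L1, where it is high, the value with no filter is the one to read (adjusted p = 0.000241, limma).

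skr-4 had 8.52, 9.5 and 7.29 RPKM in L1 libraries A1, A2 and B, against 0.19, 0.31 and 0.41 RPKM in embryos, a log2 difference of 2.78 ± 0.24 (SE, adjusted p = 5.75e-05, limma). It too passed the filter only through L1, and with no filter its adjusted p was 0.000326 (limma). The 3 genes then parted. skr-4 went on to 13.5, 10.8, 23.1, 31.7 and 20.0 RPKM from L2 to young adults, with its maximum at late L4, while skr-5 had 7.02, 2.05, 3.24, 4.96 and 2.85 RPKM. skr-3 stayed between 74.2 and 125 RPKM from L2 to late L4 and had 30.0 RPKM in young adults, close to the embryo level.

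Markers of the larval and adult intestine were high in the same libraries as these genes: over 6 genes (cpr-1, cpr-4, cpr-5, asp-1, ges-1 and elt-2) their summed level was 5188 to 8517 RPKM in C. elegans L1 and 145 to 214 RPKM in embryos, and 5 of the 6 rose (limma, adjusted p under 0.05). elt-2 was not called, with a log2 difference of -0.07. The part of intestine content in the skr-3, skr-4 and skr-5 levels was not tested.

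C. briggsae skr-3 ran the other way at L1. It had 45.2, 49.6 and 48.7 RPKM in C. briggsae L1 libraries A1, A2 and B, against 98.3, 129 and 147 RPKM in embryos, a log2 difference of -1.40. No L1 value reached the lowest embryo value, whereas in C. elegans every L1 value exceeded every embryo value; the difference between the species was not tested. Its later C. briggsae levels were 35.6, 37.3, 61.2, 42.2 and 45.9 RPKM from L2 to young adults. Over the stages of culture A it followed skr-1 in C. briggsae (Pearson's r 0.97) but not in C. elegans (-0.04). Whether skr-3 and skr-1 have separate C. briggsae values was not tested, so the reversal may not concern skr-3 alone.

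All 5 members with C. briggsae values were lower in L1 than in embryos without overlap, which held for 36.1% of 11918 genes in that species (44.6% were higher without overlap, 80.7% either way). Their median log2 difference was -8.90, against 0.13 over all genes. The count takes skr-8 and skr-15 as separate although their values are near-equal. Since they and skr-7 were chosen with this contrast in view, nothing is read from it.

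The make-up of the pool of Skp1-related transcripts, added up in RPKM, which is a per-length scale, differed between the stages. In C. elegans the 10 genes summed to 414 to 513 RPKM in L1 and to 1691 to 2770 RPKM in embryos. The 5 single-exon genes made up 0.132% to 8.50% of the sum in L1 and 63.0% to 76.8% in embryos, and skr-1 62.4% to 67.5% in L1 and 17.6% to 29.9% in embryos. The highest L1 share of the single-exon genes, 8.50%, was that of library A1. In young adults skr-1 made up 43.6%, the lowest share of any stage after the embryo, and the single-exon genes 7.94%.

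In C. briggsae the 5 genes with values summed to 152 to 171 RPKM in L1 and to 2174 to 3245 RPKM in embryos. skr-7, skr-8 and skr-15 made up 0.490% to 1.503% in L1 and 83.7% to 85.9% in embryos. As skr-8 and skr-15 are near-equal there, 1 signal may be counted under both IDs: without skr-15 the share was 0.276% to 1.20% in L1 and 77.8% to 81.4% in embryos. With all 5 IDs skr-1 made up 68.8% to 70.2% in L1 and 9.62% to 11.2% in embryos. The sums of the 2 species cover different numbers of genes and are not compared.

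**Figure D3:**
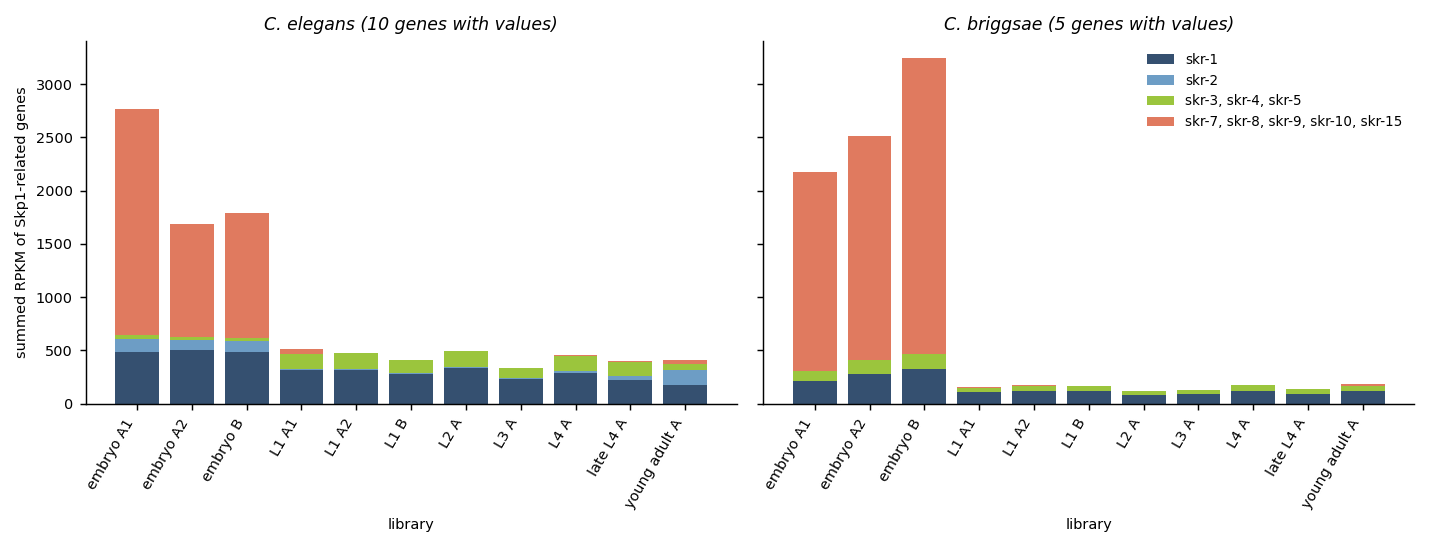
Summed RPKM of the Skp1-related genes in each library of the 7 stages, stacked by gene group, for 10 genes in C. elegans and 5 in C. briggsae. Embryo bars reach 1691 to 2770 RPKM in C. elegans and 2174 to 3245 RPKM in C. briggsae and consist mostly of the single-exon genes (red), which are a small part of the later bars.

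From L2 to young adults each stage had 1 library per species, so steps were tested in an additive model of stage and species over 10 samples, in which the species serve as replicates and a change running opposite ways counts as error. Of the 5 members that could enter, none was called at L3 against L2, L4 against L3 or late L4 against L4. The percentage of all 12456 genes called was 0 at each of these steps (limma, adjusted p under 0.05), with 682, 201 and 512 genes and 0 members at an unadjusted p under 0.05. These steps therefore do not show that the genes stayed level. In young adults against late L4, 14.3% of genes were called (9.7% higher and 4.6% lower), and among the members only skr-15.

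skr-15 had 9.70 RPKM in young adults and 0.12 RPKM in late L4 of C. elegans, and 9.52 RPKM in young adults and 0.21 RPKM in late L4 of C. briggsae. The log2 difference was 3.19 ± 0.30 (SE, adjusted p = 0.00205, limma), and 3.16 ± 0.30 against L2 (adjusted p = 0.00125), where 36.4% of genes were called (18.5% higher). skr-15 passed the filter on low values only through the 2 young adult libraries, where it is high, so its being the called member at these steps is not read as a result about the list. With no filter its adjusted p was 0.00149 against late L4 and 0.00115 against L2 (limma). The C. briggsae values of skr-15 cannot be read as separate from those of skr-8, so the C. briggsae samples of this test may not measure skr-15 alone.

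The other members were not called at this step. skr-8 had 1.04 RPKM in young adults and 0.02 RPKM in late L4 of C. elegans, and 9.19 RPKM in young adults and 0.21 RPKM in late L4 of C. briggsae (log2 difference 2.03 ± 0.81, adjusted p = 0.137, limma). skr-7 showed the reverse, with 18.0 RPKM in young adults and 0.33 RPKM in late L4 of C. elegans, and 0.49 RPKM in young adults and 0.24 RPKM in late L4 of C. briggsae (log2 difference 2.05 ± 0.75, adjusted p = 0.112). skr-3 (-0.80 ± 0.53, adjusted p = 0.324) and skr-1 (-0.01 ± 0.33, adjusted p = 0.986) completed the 5. Leaving out the C. briggsae young adults brought skr-3 to -1.72 (adjusted p = 0.0395) and skr-7 to 3.38 (adjusted p = 0.0216), and leaving out the C. elegans young adults brought skr-8 to 3.52 (adjusted p = 0.0328).

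skr-9 and skr-10, without C. briggsae values, had 0.59 and 2.86 RPKM in young adults and 0.23 and 0.43 RPKM in late L4 of C. elegans. Of 5 other skr genes tested, skr-17 rose in young adults (log2 difference 2.34 ± 0.38, adjusted p = 0.0139, limma): it had 50.9 RPKM in young adults and 5.63 RPKM in late L4 of C. elegans, and 23.9 RPKM in young adults and 6.58 RPKM in late L4 of C. briggsae. The C. briggsae values of skr-18 were close to these, at 23.2 and 7.23 RPKM, but in C. elegans it had 64.6 and 30.0 RPKM. Whether the 2 IDs have separate C. briggsae values was not tested.

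The low larval values of the single-exon members varied between libraries that also varied in adult transcripts. The C. elegans L2 library held 436 RPKM over 4 vitellogenins, the yolk proteins of the adult gut, and 78.6 RPKM over the oocyte and early embryo markers, against 71.8 and 33.1 RPKM in L3. skr-7 and skr-8 had 1.48 and 1.67 RPKM in L2, and 1.94 and 0.95 RPKM in L3. In L4 the vitellogenins and the markers held 5.19 and 13.6 RPKM, while skr-7 and skr-8 had 1.98 and 0.92 RPKM. In late L4 the vitellogenins and the markers held 2.30 and 78.1 RPKM, while skr-7 and skr-8 had 0.33 and 0.02 RPKM. The part of adult material in these values was not tested.

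Young adults held far less of the transcripts of the single-exon members than embryos, although the oocyte markers ran high in young adults. In C. elegans the 5 genes had 0.199% to 6.66% of their embryo level (culture A), whereas all 10 oocyte and early embryo markers were higher in young adults than in embryos, by 1.61 to 107 times. Low shares were not particular to these members: skr-21 had 0.805%, skr-12 1.03%, skr-13 2.03%, skr-14 3.79%, skr-16 8.84% and skr-20 13.7% of the C. elegans embryo level. skr-17 and skr-18 ran the other way, at 348% and 162%. In C. briggsae skr-7 had 0.0663%, skr-8 1.47% and skr-15 1.54% of the embryo level, and 5 of 9 markers were higher in young adults, with ratios of 0.285 to 11.3. skr-2 at 1.32 times its embryo level and skr-3 at 1.06 times lay near equality in C. elegans. In each species young adults had 1 library, so these ratios carry no test.

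**Figure D4:**
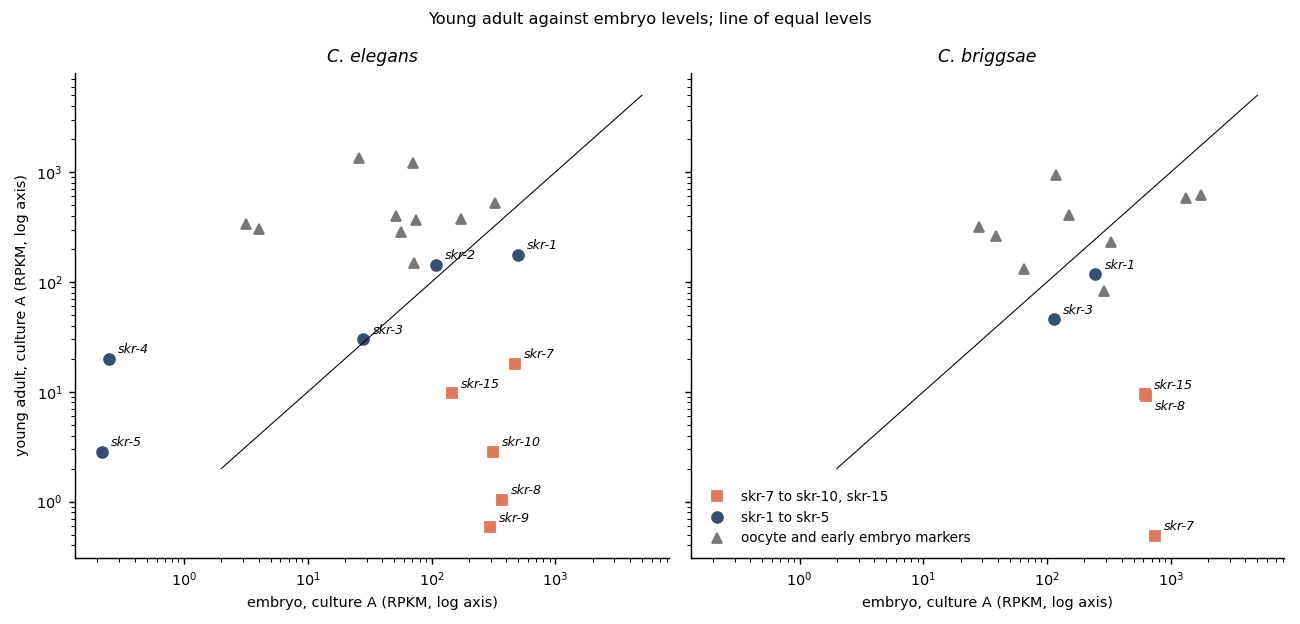
RPKM in young adults (vertical, log axis) against embryos of culture A (horizontal, log axis) for the single-exon members (red squares), the other members (blue circles) and oocyte and early embryo markers (grey triangles). The line marks equal levels. All single-exon members lie below the line in both species, at no more than 6.66% of the embryo level, and all 10 C. elegans markers lie above it. Other skr genes are not drawn.

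Mean levels differed between the species in 2 of the 5 members over L2 to young adults (limma, C. elegans minus C. briggsae). In this comparison 33.2% of genes were called (16.9% higher in C. elegans). The 5 stages served as replicates but all came from culture A, so each species had n = 1 culture. The p-values measure the spread over stages, not that between cultures. skr-1 had 177 to 336 RPKM in C. elegans and 84.8 to 117 RPKM in C. briggsae without overlap, a log2 difference of 1.30 ± 0.21 (SE, adjusted p = 0.00527). skr-7 was called at 1.54 ± 0.47 (adjusted p = 0.0466), with 0.33 to 18.0 RPKM in C. elegans and 0.06 to 0.49 RPKM in C. briggsae, and this call was lost in 8 of 15 alternatives. skr-7 reached 1 RPKM in 4 of the 10 samples, all of them C. elegans, so it entered this test only through the species where it is high; with no filter its adjusted p was 0.0484 (limma). skr-3 had 30.0 to 125 RPKM in C. elegans and 35.6 to 61.2 RPKM in C. briggsae (0.87 ± 0.33, adjusted p = 0.0871), and it was called in 3 of 16 alternatives, with a log2 difference of 1.24 when the young adults of either species were left out (adjusted p of 0.00826 and 0.00835) and of 1.00 under median-ratio scaling (adjusted p = 0.0357). RPKM of orthologs rest on different gene models: ned-8 was listed at 53.4 RPKM or more in every C. elegans stage and at 2.27 RPKM or less in every C. briggsae stage.

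Among partners of Skp1, cullins and RING subunits fell in 6 of 7 cases in C. elegans L1 against embryos (limma, adjusted p under 0.05), where 42.5% of all genes fell. Their median log2 difference was -1.43, against -0.33 over all genes. rbx-1, the RING subunit, fell by 1.95 ± 0.32 on the log2 scale. cul-6, the cullin that acts with skr-3 and skr-5, was the exception: it had 5.69, 5.03 and 6.07 RPKM in L1 libraries A1, A2 and B, against 0.62, 0.95 and 1.27 RPKM in embryos, a log2 difference of 1.74 ± 0.25 (SE, adjusted p = 0.000573, limma). In C. briggsae cul-6 had 14.2, 16.98 and 15.2 RPKM in L1, against 24.8, 25.9 and 20.5 RPKM in embryos. cul-1 was not analysed here.

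F-box genes fell in 7 of 8 cases in C. elegans L1 (median log2 difference -1.91), against the same 42.5% and median of -0.33 over all genes. prom-1, which acts in meiotic chromosome pairing, fell by 2.79 ± 0.24 on the log2 scale (limma, adjusted p under 0.05). As it had 0.64 and 0.66 RPKM in L1 cultures A and B, it passed the filter only through embryos, where it is high. Its call is therefore not read as a result about the list. lin-23, the beta-TrCP homolog, fell by 0.70 ± 0.23 (limma, adjusted p under 0.05). mfb-1 was not called (-0.28). In the neddylation list 11 of 12 genes fell (median -1.09), and rfl-1 was not called (-0.57 ± 0.23, adjusted p = 0.0585). In young adults against late L4, where 9.7% of all genes rose, 4 of 7 F-box genes did, among them prom-1 (2.30 ± 0.37, adjusted p = 0.013) and sel-10, the Fbw7 homolog (1.28 ± 0.27, adjusted p = 0.0304), as did 1 of 6 cullin and RING genes (cul-2, 1.04 ± 0.25, adjusted p = 0.0412) and 0 of 12 neddylation genes (5 at an unadjusted p under 0.05).

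Profiles were also compared over the 7 stages of culture A, as a description across stages that share libraries. Within C. elegans, Pearson's r of log2(RPKM + 1) was 0.89 to 0.99 for the 10 pairs among the single-exon members, -0.97 to -0.55 between them and skr-3, skr-4 or skr-5, and -0.08 between the neighbours skr-1 and skr-2. In C. briggsae r between skr-3 and the single-exon members was 0.85 to 0.91. Closest to skr-3 there was skr-1, with r of 0.97, against -0.04 in C. elegans. The genes most like skr-15 in both species were sought among 8335 genes, with all skr genes left out of the ranking. Closest were cdt-1, which licenses DNA replication origins (smaller r of the 2 species 0.986), and set-1, a histone H4 methyltransferase (0.985). Next came div-1, a DNA polymerase alpha subunit (0.983), htz-1, the histone variant H2A.Z (0.983), and E02D9.1 (0.982). The level of cdt-1 was 6.78 RPKM in L1 and 71.3 RPKM in embryos of C. elegans (culture A), a smaller difference than that of skr-15. Most like skr-1, again without skr genes, were vps-34, a phosphatidylinositol 3-kinase (0.964), lin-25, a Mediator subunit (0.959), C26B9.6 (0.947), dohh-1 (0.940) and atg-16.2, an autophagy gene (0.935).

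The mixed-stage libraries of C. elegans held all 10 members at 1 RPKM or more. They had 294 and 414 RPKM of skr-1, 124 and 182 of skr-2, and 51.2 and 75.3 of skr-7 in libraries A1 and A2, and the single-exon genes made up 20.1% and 19.6% of the summed member RPKM. These shares lay between those of young adults (7.94%) and embryos (63.0% to 76.8%). In C. briggsae the share was 13.6% and 16.3%, or 8.87% and 10.8% without skr-15.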

How the data were processed

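RNA-seq libraries of 2 species were analysed from the RPKM table deposited by the authors. The submitters' processing notes name BWA 0.5.7 as the aligner. The members and the partner and marker lists were chosen with earlier results of these data known. The tests were those of limma (version 3.58.1, R 4.3.3), with a trend in eBayes, on log2(RPKM + 1), a scale that understates changes of low genes, over genes that reached 1 RPKM in 2 or more samples of the comparison, with Benjamini-Hochberg adjustment over all of them and a threshold of 0.05. Libraries of a culture were averaged on the log scale first. Scripts were tested on simulated data. Genes named are the members, every other skr gene and the partner lists. For skr-1 and skr-15 the 5 most similar profiles are added, from genes outside the skr family that reach 10 RPKM in both species. C. briggsae values that 125 IDs share with another ID were not used in the tests. Labels give A and B as separate time courses of both stages, but over 15292 genes the deviations of embryos and L1 correlated at -0.01. Positions come from Ensembl 115 (WBcel235). Alternatives were other pseudocounts, filters and scalings, culture as a block, 14 samples and left-out libraries. Tables and figures used Python 3.11.15, pandas 2.3.3, numpy 2.4.6 and matplotlib 3.10.9.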

Additional observations from a re-analysis of the deposited data

Results flagged for a closer look

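A set of 3 genes ran opposite ways in the species between L1 and embryos in every library, and the difference between the species was not tested in any of them. They were picked from 5 members, 5 other skr, 6 cullin and RING, 7 F-box and 12 neddylation genes with values in both species. Libraries of the stages did not overlap in 75.3% of all C. elegans and 80.7% of all C. briggsae genes. How many of all genes ran opposite ways was not counted, so nothing is read from the number 3. skr-3 had a log2(RPKM + 1) difference, L1 minus embryo, of 1.88 in C. elegans and -1.40 in C. briggsae. Whether its C. briggsae values are separate from those of skr-1 was not tested. cul-6 had 1.74 in C. elegans and -0.54 in C. briggsae. The F-box gene dre-1, which acts in developmental timing, had -0.82 in C. elegans and 2.56 in C. briggsae: it had 43.6, 40.7 and 43.5 RPKM in C. elegans L1 libraries A1, A2 and B, against 59.3, 75.9 and 86.5 RPKM in embryos, and 23.7, 26.8 and 28.6 RPKM in C. briggsae L1, against 7.74, 7.03 and 1.65 RPKM in embryos.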

How the results depend on the processing

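Counts of genes and members called were within 1.5 times the reported count in 197 of 222 settings. This includes every setting of L3 against L2, L4 against L3 and late L4 against L4. There 0 genes and 0 members were called throughout, so that agreement says nothing about stability. With embryos and L1 added (14 samples), 1072 genes were called in young adults against late L4 (1781 as reported) and 1 member between the species (2 as reported), as also with a filter of 5 RPKM (1). Leaving out libraries gave 7863 to 11471 genes and 7 to 10 members in C. elegans L1 against embryos; without L1 culture B or A, skr-4 and skr-5 missed the filter. It gave 258 to 1643 genes and 1 to 2 members in young adults against late L4 (258 without C. elegans late L4), 1930 to 4324 genes and 1 to 2 members in young adults against L2, and 2466 to 4615 genes and 1 to 3 members between the species. With the culture as a replicate block 10779 genes and 10 members were called in C. elegans L1 against embryos, and no member's call changed. Of single member differences not called as reported, several changed sign, and 2 of the ranges below against L2 end in a called value: skr-3 at -1.75 without the C. briggsae young adults (adjusted p = 0.0208, limma) and skr-8 at 2.89 without the C. elegans young adults (adjusted p = 0.022). Against late L4, skr-3 was called at -1.72 (adjusted p = 0.0395). skr-1 was at 0.063 for young adults against L2 and at 0.16 for young adults against late L4 under median-ratio scaling, and at 0.14 for that last step under quantile normalization. Leaving out libraries, skr-1 ran from -0.67 to 0.21 against L2 and from -0.45 to 0.43 against late L4, skr-3 from -1.75 to 0.085 and from -1.72 to 0.12, skr-8 from -0.073 to 2.89 against L2, and skr-8 between the species from -0.25 to 0.64. The cause was not tested. Scaling moved the median log2 difference of all genes, L1 minus embryo, to -0.07 (quantile) and -0.22 (median ratio) from -0.33, and relative to it skr-1 was at -0.96 and -0.37. Depth, which is unknown, limits every value below 1 RPKM.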
